A study of Mus musculus with 20 samples.

Results

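Mitochondrial ribosomal proteins were examined in livers in which the RNA-binding protein HuR had been knocked down, in human hepatocytes of humanized mice and in wild type (WT) mice. The members were the protein-coding genes whose symbol begins with MRPL or MRPS and a number. They were 78 of the 60607 human genes and 78 of the 55335 mouse genes listed, 49 with a large subunit and 29 with a small subunit symbol in each species, and all 78 symbols were shared. MRPL17 was singled out beforehand for its opposite change in human and mouse in these same data. Transcript levels were deposited as TPM (transcripts per 1000000), a read count per length of gene, scaled so that each liver adds up to 1000000.

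The human genes were measured in 8 livers of humanized TK-NOG mice, immunodeficient mice whose own hepatocytes carry a thymidine kinase transgene under the mouse albumin promoter. Ganciclovir (25 mg/kg) was given at 8 to 9 weeks of age to kill those cells, and 1000000 human hepatocytes were injected into the spleen 1 week later. The mice entered the experiment 8 to 12 weeks after that, with human albumin above 0.5 mg/ml in blood. They received 2000000000 pfu of an adenovirus carrying an shRNA against human HuR (4 HuR KD livers) or a control LacZ virus (4 LacZ livers). The mouse genes were measured in 12 livers of male C57BL/6 WT mice, which the methods state were bought at 8 weeks of age. These received the same dose of a virus against mouse HuR (6 livers) or of the control virus (6 livers). All livers were taken on day 7 after a 4 h fast. The humanized table lists human genes only, mouse cells remain in those livers, and the number of hepatocyte donors is not given in the sources used here. The shRNA, the strain and the surrounding cells differ between the humanized and the WT mice together with the species, and their parts cannot be told apart.

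The mitochondrial ribosome translates the few proteins encoded by mitochondrial DNA, all of them parts of the respiratory chain and ATP synthase. Its ribosomal RNAs come from the mitochondrial genome, while every one of its proteins is encoded in the nucleus, translated in the cytosol and imported. A large part of these proteins have counterparts in bacterial ribosomes, and the rest are particular to mitochondria. A symbol does not always give the place of the protein: MRPS30 and MRPS18A sit in the large subunit, and MRPS36 is known as a part of the 2-oxoglutarate dehydrogenase complex. HuR, encoded by ELAVL1, binds AU-rich and U-rich stretches, mostly in 3′ untranslated regions (3′ UTRs) and introns, and is known for stabilising many of the mRNAs it binds.

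HuR mRNA itself was lower in all HuR KD livers of both species. ELAVL1 stood at 4.05, 2.37, 3.54 and 3.90 TPM in the humanized HuR KD livers and at 5.76, 4.77, 6.17 and 5.99 TPM in the LacZ livers. The mean was 61.0% of the control, and the groups did not overlap (log2 difference −0.59, SE 0.17, exact permutation p = 0.0286, the smallest 4 against 4 can give; adjusted p = 0.214). Elavl1 in WT livers ranged from 3.72 to 5.62 TPM (median 4.97) with HuR KD and from 8.58 to 10.7 TPM (median 9.49) with LacZ. Here the mean was 51.7% of the control (log2 difference −0.83, SE 0.09, adjusted p = 0.00105).

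Depth differed between the livers. Reads recovered from the steps of the TPM came to between 2670469 and 20302454 per humanized liver and between 1423985 (LacZ replicate 2) and 44668272 per WT liver, and the members together held 4452 to 33924 reads in a humanized and 2929 to 88297 in a WT liver. Some livers stood apart. Humanized HuR KD replicate 4 and LacZ replicate 2 were the deepest of their set and deviated from their group means together (Pearson correlation of deviations across genes 0.68). WT HuR KD replicate 6 had 12960373 reads and stood apart in several members described below. Hepatocyte markers summed to at least 42502 TPM in every humanized and 75378 TPM in every WT liver, against at most 0.995 TPM for 7 human endothelial markers. Human cholangiocyte markers were called lower for 2 of the 4 tested, with a sum over 6 markers of 6.02 to 29.4 TPM in HuR KD and 12.9 to 45.5 TPM in LacZ livers. Human stellate cell and fibroblast markers were called lower for 1 of the 2 tested, and their sum over 7 markers, 2.79 to 4.88 TPM in HuR KD and 5.26 to 7.37 TPM in LacZ livers, did not overlap between the groups. Kupffer cell markers of WT livers were called lower for 4 of 8, with a sum of 294 to 508 TPM in HuR KD and 415 to 562 TPM in LacZ livers. Hepatocyte markers gave 1 higher of 10 in human and 1 lower of 8 in mouse. Mouse endothelial markers gave 1 higher of 7 and mouse stellate cell markers 1 lower of 7. Of all genes tested, 7.87% were called lower and 3.60% higher in human, and 6.94% and 9.09% in mouse. Groups did not overlap for 5.03% lower and 2.13% higher of single human genes. The part of these cell types in the results below was not tested. Fewer cells of a type and less RNA per cell cannot be told apart in such bulk samples.

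In the control livers, the members were moderately expressed. The median over 78 members was 13.4 TPM in humanized and 24.6 TPM in WT LacZ livers. Their summed level had a mean of 1378 TPM and 2218 TPM. Nuclear protein-coding genes held a mean of 30.9% of all TPM in humanized but 76.8% in WT LacZ livers. Rescaled so that these genes alone add up to the TPM total, the mean sums were 4502 in humanized and 2886 in WT LacZ livers. The order between the tables thus depends on the scaling, and no species difference in level is drawn from it. The 3 highest human members were MRPL41 (81.6 ± 24.9 TPM, SD, n = 4), MRPS35 (67.7 ± 6.21) and MRPL14 (56.3 ± 13.0). MRPL41 and MRPS35 are particular to mitochondria, and MRPL14 is the counterpart of a bacterial protein of the subunit interface. MRPL41 ranged from 60.0 to 117 TPM and overlapped MRPS35, whose LacZ livers lay between 63.6 and 76.9 TPM, so the order of these neighbours was within the spread. In WT LacZ livers the 3 highest were Mrpl18 (84.8 ± 5.59 TPM, SD, n = 6), Mrpl24 (73.6 ± 4.55) and Mrps7 (67.9 ± 2.29). Mrpl24 and Mrps7 overlapped each other, and the lowest liver of Mrpl18 stood at 78.9 TPM against a highest of 77.2 TPM for Mrpl24.

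The order of the members differed between the species tables. Across the 78 members, the Spearman correlation of mean LacZ levels between human and mouse was 0.05, and across the 73 pairs tested in both it was 0.04. It was 0.58 across 8123 protein-coding pairs, as a description over genes with no test. The members and all pairs were not matched for their range of levels, on which such a correlation depends. Whether the members differ more than other genes of like level was not tested. MRPS35 was the second highest human member and Mrps35 ranked 69 of 78 in the mouse at 7.68 ± 0.61 TPM (SD, n = 6). TPM divide by the length of all exons of a gene together, and Mrps35 has 8631 such bases, the longest of the mouse members, against a median of 2394. All 78 mouse lengths recovered from the TPM steps matched the annotated ones. A long rarely used exon lowers the TPM of a gene, and human lengths were not used here, so levels between species share this limit.

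**Figure D1:**
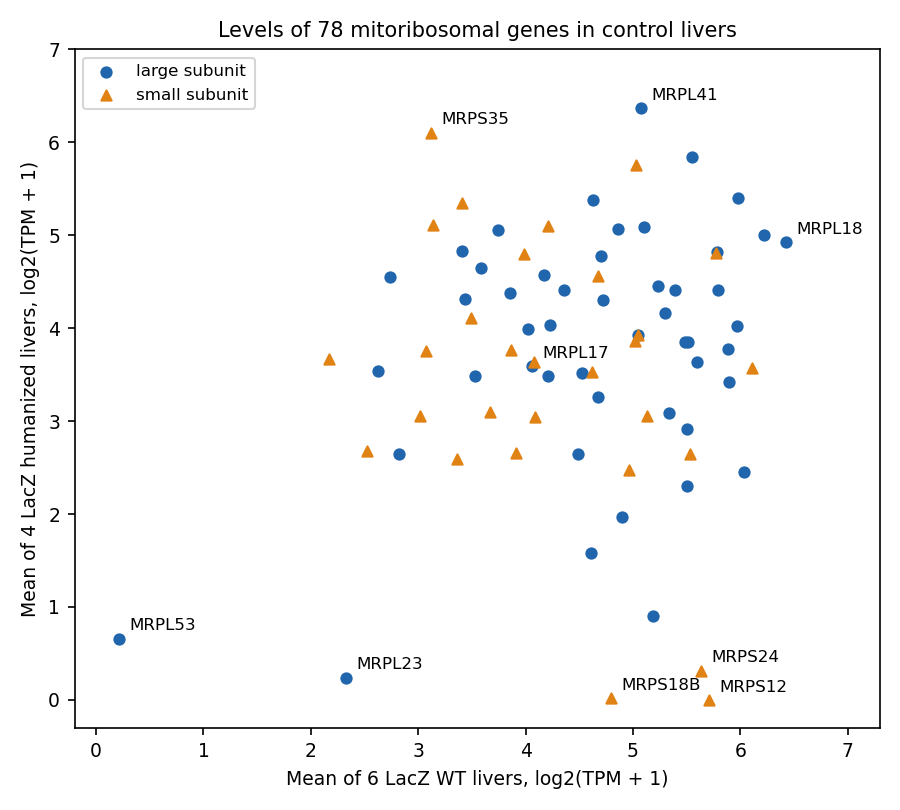
Each point is 1 of the 78 mitochondrial ribosomal protein genes, placed by its mean level in 6 LacZ WT livers (horizontal axis) and in 4 LacZ humanized livers (vertical axis), both as log2(TPM + 1), with circles for large and triangles for small subunit symbols. The points form no line (Spearman correlation 0.05), and MRPS12, MRPS24 and MRPS18B lie near 0 in the human table only.

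Members near 0 differed between the tables. In humanized livers 5 members had a mean under 1 TPM and were not tested. MRPS12, the protein of the decoding centre, was listed at 0 in all 8 livers, whereas Mrps12 averaged 51.3 ± 3.42 TPM in WT LacZ livers. MRPS18B, one of the paralogs of the bacterial S18 protein, was listed at 0 in 7 livers and at 0.052 TPM in LacZ replicate 2, while Mrps18b averaged 26.7 ± 3.01 TPM. MRPS24 lay between 0.03 and 0.74 TPM, on 1 to 5 reads per liver. Its mouse counterpart Mrps24 averaged 48.8 ± 2.18 TPM. MRPL23 was listed at no more than 0.55 TPM and MRPL53 at no more than 1.79 TPM. In the mouse only Mrpl53 was below the filter, at 0 to 0.71 TPM. Of the 790 exon bases of Mrpl53, 695 are shared on the same strand with Gm42688, and reads there may have been assigned to neither gene. Which human genes share exons was not analysed here.

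The ribosomal RNAs that these proteins bind were also listed differently. The 12S and 16S mitochondrial rRNAs took 27.2 to 49.1% of all TPM in humanized livers and were listed at 0 in all 12 WT livers. This share differed among humanized livers, reached 49.1% in HuR KD replicate 4 and in LacZ replicate 2, and lowers the TPM of all other genes in those livers. For this reason each change below is a difference within a table, and the human counts are given under other scalings too.

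As a group, the human members moved little. Summed over 78 members, the level was 1214, 1236, 1534 and 1360 TPM in the HuR KD livers and 1252, 1406, 1444 and 1410 TPM in the LacZ livers, and the groups overlapped. Of 73 tested members, 4 were lower and 2 higher with HuR KD at an unadjusted p under 0.05 in limma on log2(TPM + 1), and 0 passed the Benjamini-Hochberg adjusted threshold (0.212% of all genes did). Among all 12738 human genes tested, 7.87% were called lower and 3.60% higher, so that the shares of members, 5.48% lower and 2.74% higher, were no larger than the background. The median log2 difference of the members was −0.02 (all genes −0.05), and it became 0.06, 0.04 and 0.07 with median-of-ratios factors, quantile normalization and rescaling to protein-coding genes. The counts under these 3 scalings were 7, 5 and 4 higher beside 4 lower each, and the share of higher genes among all human calls moved from 31.3% to 49.5%, 47.3% and 48.6%. Of all human genes tested, 6.44%, 6.11% and 4.99% were called higher under them, and 6.59%, 6.81% and 5.28% lower. Single livers also moved them. Lowered members numbered 2 without HuR KD replicate 1 and 7 without HuR KD replicate 3, and raised members 0 without HuR KD replicate 1, LacZ replicate 1 or LacZ replicate 3, 1 without HuR KD replicate 3 or LacZ replicate 4, and 4 without LacZ replicate 2.

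The lowered human members with the smallest p were MRPL11 and MRPL17, both of the large subunit. MRPL11, the counterpart of the bacterial protein at the base of the ribosomal stalk, where translation factors dock, stood at 2.27, 4.20, 5.70 and 5.29 TPM in the HuR KD livers and at 10.2, 8.32, 12.1 and 10.1 TPM in the LacZ livers. Every HuR KD liver lay below every LacZ liver. The log2 difference was −1.10 (SE 0.23, adjusted p = 0.0977), on 9 to 232 reads per liver. MRPL17, a counterpart of bacterial L17 near the exit of the peptide tunnel, stood at 4.91, 6.12, 8.02 and 5.80 TPM with HuR KD and at 11.2, 8.86, 12.9 and 11.3 TPM with LacZ. Again the groups did not overlap, with a log2 difference of −0.75 (SE 0.17, adjusted p = 0.124) on 20 to 254 reads per liver. Both stayed past the unadjusted threshold in all 19 alternatives that kept it, each liver left out included, and both missed the adjusted one. For MRPL17 these fits are no independent test, because it was singled out for its change in the same livers.

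MRPL18 and MRPS34 were lowered with smaller differences. MRPL18 belongs to the central protuberance, the crown of the large subunit. It stood at 20.5, 22.2, 22.3 and 22.0 TPM with HuR KD and at 25.6, 25.7, 28.9 and 37.0 TPM with LacZ, without overlap. Its log2 difference was −0.40 (SE 0.15, adjusted p = 0.335). The call was lost without HuR KD replicate 1 (−0.37) and without LacZ replicate 4 (−0.28). MRPS34, a small subunit protein particular to mitochondria and needed for a stable small subunit, stood at 29.2, 40.2, 48.8 and 37.4 TPM with HuR KD and at 52.7, 48.6, 56.4 and 53.6 TPM with LacZ. HuR KD replicate 3 lay just above the lowest LacZ liver. The log2 difference was −0.45 (SE 0.16, adjusted p = 0.327). That call was lost without HuR KD replicate 1 (−0.33) and without LacZ replicate 3 (−0.42). Among the 73 members the groups did not overlap for 3 lower members and 1 higher member, beside 5.03% lower and 2.13% higher of all human genes tested.

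The raised human members were MRPL4 and MRPS36. MRPL4, a counterpart of the bacterial protein lining the peptide tunnel, stood at 15.9, 12.7, 14.2 and 12.6 TPM with HuR KD and at 9.14, 12.4, 9.41 and 11.0 TPM with LacZ. The HuR KD livers all lay higher, by a log2 difference of 0.37 (SE 0.15, adjusted p = 0.366). MRPS36 stood at 12.7, 8.39, 8.86 and 11.0 TPM with HuR KD and at 6.27, 9.75, 6.24 and 7.08 TPM with LacZ. Its groups overlapped in LacZ replicate 2, and the log2 difference was 0.43 (SE 0.19, adjusted p = 0.417) on 18 to 190 reads. MRPL4 lost its call in 4 of the 8 fits that left out a liver (HuR KD replicates 1 and 3, LacZ replicates 1 and 3, log2 differences of 0.31 to 0.36), and MRPS36 in 5 (HuR KD replicates 1 and 4, LacZ replicates 1, 3 and 4, log2 differences of 0.33 to 0.43). The pseudogenes MRPS36P1 and MRPS36P4 were listed at means of 2.64 and 0.99 TPM. Their likeness to MRPS36 in sequence was not analysed here, so whether they affect its value is not known.

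**Figure D2:**
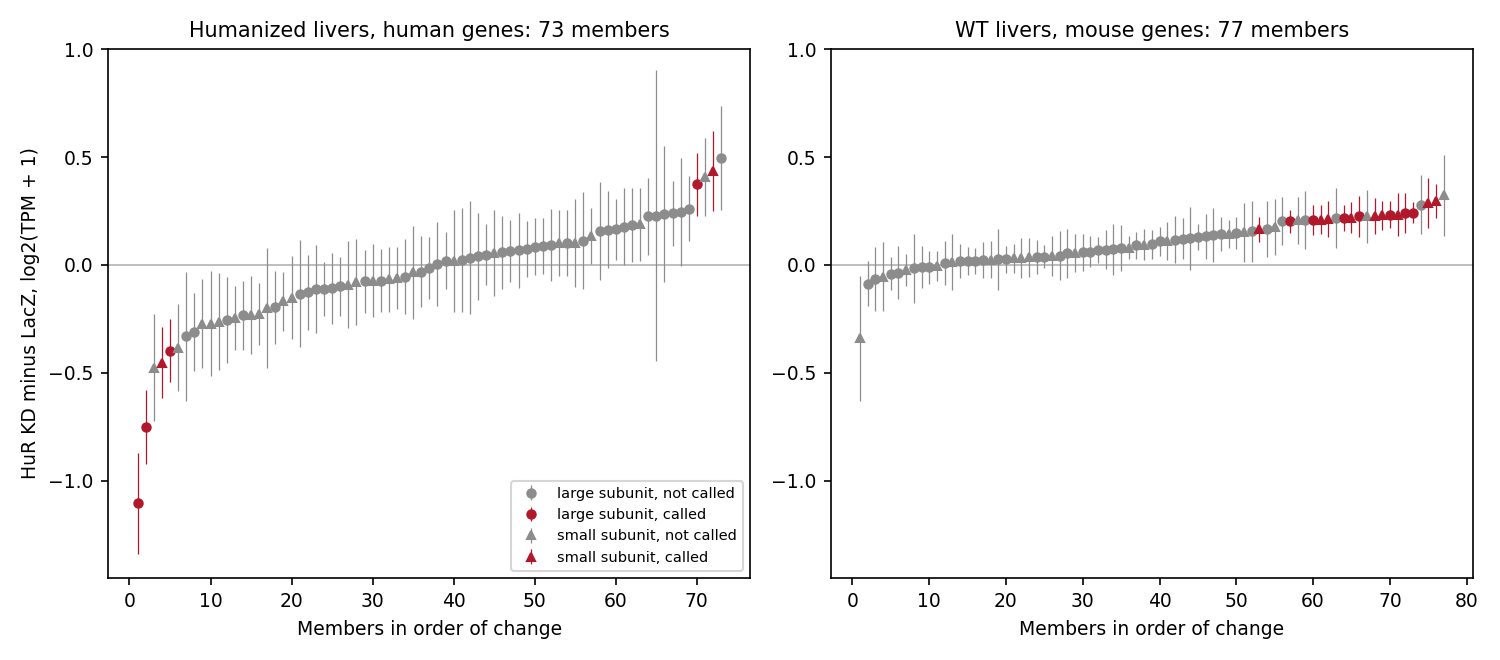
Tested members are placed in order of their change (horizontal axis) against the difference between HuR KD and LacZ livers as log2(TPM + 1) with its SE (vertical axis), for 73 human genes in humanized livers (left) and 77 mouse genes in WT livers (right), with circles for large and triangles for small subunit symbols and red for an unadjusted p under 0.05. The human members spread on both sides of 0 with 4 lowered and 2 raised, whereas 66 of the 77 mouse members lie above 0 and 16 of them are called. Of all 15090 mouse genes tested (not drawn), 8568 lie above 0.

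In WT livers, the members were more often higher with HuR KD. Their summed level ranged from 2256 to 2509 TPM (median 2411) in HuR KD and from 2110 to 2277 TPM (median 2240) in LacZ livers. In all, 4 HuR KD livers lay above all LacZ livers, and replicates 3 and 6 lay within their range. Of 77 members tested, 16 were raised and 0 lowered, with 1 past the adjusted threshold (0.888% of all genes). This was 20.8% of the members, beside 9.09% higher and 6.94% lower of all 15090 mouse genes tested. A difference above 0 was seen for 66 of the 77 members, beside 8568 of all 15090 mouse genes and 75 of 80 cytosolic ribosomal proteins. The median of the members was 0.10 (all genes 0.03) and stayed between 0.09 and 0.11 under the 3 other scalings. Small subunit symbols gave 9 raised of 29 and large subunit symbols 7 of 48. The number raised was 30 without HuR KD replicate 6 and between 14 and 22 without any other liver. Without HuR KD replicate 6, 12.4% of all mouse genes were called higher. For 6 raised members the groups did not overlap, beside 1.25% higher and 1.23% lower of all genes.

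The raised members with the smallest p stood at means of 116% to 123% of the control. Mrpl17 ranged from 17.5 to 19.5 TPM (median 18.8) with HuR KD and from 15.0 to 16.4 TPM (median 15.6) with LacZ. All HuR KD livers lay above all LacZ livers, at a mean of 120% of the control (log2 difference 0.24, SE 0.05, exact permutation p = 0.00216, the smallest 6 against 6 can give). Its adjusted p in limma was 0.0454, the only one among the members under 0.05. Mrpl17 was singled out for its opposite change in these same livers, so these p-values are no independent test of it. The number of members past the adjusted threshold was 6 without HuR KD replicate 6, 1 without LacZ replicate 2 and 0 without any of the other 10 livers. It was also 0 with median-of-ratios factors, with quantile normalization, without the variance trend and with the replicate block, whereas array weights gave 21 and voom on the recovered reads gave 5. The number over all mouse genes rose too, from 134 of 15090 in the reported fit. It was 1717 of 15090 with array weights, 530 of 15077 with voom and 371 of 15124 without HuR KD replicate 6.

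Mrpl42, particular to mitochondria, ranged from 22.9 to 26.2 TPM (median 24.9) with HuR KD and from 19.8 to 22.5 TPM (median 21.6) with LacZ. The groups did not overlap (log2 difference 0.20, SE 0.05, adjusted p = 0.0893). Mrpl3, the counterpart of a bacterial protein that reaches the peptidyl transferase centre, ranged from 10.5 to 12.4 TPM (median 11.3) with HuR KD and from 9.00 to 10.4 TPM (median 9.70) with LacZ. These groups did not overlap either (log2 difference 0.22, SE 0.06, adjusted p = 0.0965), and 248 of its 6661 exon bases are shared on the same strand with Gm38077. Mrpl12, the stalk protein that also binds the mitochondrial RNA polymerase, ranged from 70.3 to 86.0 TPM (median 75.0) with HuR KD and from 59.2 to 71.4 TPM (median 65.5) with LacZ. One LacZ liver lay above the lowest HuR KD liver (log2 difference 0.23, SE 0.06, adjusted p = 0.0974). Mrps18b ranged from 29.0 to 35.6 TPM (median 33.3) with HuR KD and from 21.1 to 29.0 TPM (median 27.8) with LacZ. The highest LacZ and the lowest HuR KD value nearly met (log2 difference 0.30, SE 0.08, adjusted p = 0.0977).

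The other raised members were Mrps35, Mrps30, Mrps16, Mrpl54, Mrps9, Mrps23, Mrpl55, Mrps25, Mrps34, Mrpl23 and Mrps24, and over all 16 the log2 differences ran from 0.17 (Mrps9) to 0.30 (Mrps18b). Mrps35 and Mrps24 had no overlap between groups, although the lowest HuR KD (51.1 TPM) and the highest LacZ liver (51.0 TPM) of Mrps24 nearly met. Mrpl23 lost its call in 6 of the 12 fits that left out a liver (HuR KD replicates 4, 5 and 6, LacZ replicates 2, 3 and 4), with log2 differences of 0.17 to 0.23. Mrps34 lost it without LacZ replicate 1 or 6 (0.27 and 0.26), and Mrps24 without LacZ replicate 1, 3 or 5, with log2 differences of 0.22 to 0.23.

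The mouse 3′ UTR of Mrpl17 is the one of the raised members that holds the most bases (6651 in transcript Mrpl17-202). Mrpl17 is a minus strand gene of chromosome 7 (105803206 to 105811099, GRCm38, GENCODE M21) with 2 exons after merging its transcripts. The letters tatttat, the core of an AU-rich nonamer, searched on the transcript strand, occurs in the 3′ UTR of 4 of the 16 raised members and of 9 of the 61 members not called. The 25-base windows that follow show it in capitals for those 4 raised genes, because such AU-rich stretches are the kind of sequence HuR is known to bind.

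Mrpl17, base 1407 of the 3′ UTR: catggagctTATTTATatccactaa

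Mrpl17, base 5804 of the 3′ UTR: tcttagttaTATTTATtcctatgtc

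Mrpl3, base 1158 of the 3′ UTR: agtttattaTATTTATtttatttat

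Mrps30, base 1933 of the 3′ UTR: tgaaattctTATTTATttatttttt

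Mrps35, base 1608 of the 3′ UTR: cctgattttTATTTATggcatatca

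Mrpl3 and Mrps30 hold another copy 9 and 4 bases further on. As a whole the members had short 3′ UTRs, with a median of 326 bases against 884.5 in 11146 protein-coding genes tested, using 1 transcript a gene. The core tatttat was present in 16.9% of members and 25.8% of genes, and the shorter attta, which lies inside it, in 53.2% and 64.4%. Per 1000 bases of 3′ UTR, attta occurred 1.79 times in the members and 1.83 times in all genes, and tatttat 0.204 and 0.287 times. A U-rich run, ttttttt, was present in 27.3% of members and 39.0% of genes. It was found in 7 of the 16 raised members and in 14 of the 61 not called. The raised members had longer 3′ UTRs (median 548.5 bases) than those not called (325 bases). Of the mouse counterparts of the other lowered human members, Mrpl11 (chromosome 19, 4962147 to 4966999), Mrpl18 (chromosome 17, 12911349 to 12916345) and Mrps34 (chromosome 17, 24895116 to 24897502) held 0 copies of tatttat. A match is a run of letters and not a measured binding site, and human 3′ UTRs were not analysed here.

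Of 5 short motifs searched, 3 were present in a larger share of the members' promoters than of promoters at large. RefSeq windows from 250 bases before to 50 bases after the start were matched for 69 members (75 windows). The letters CCGGAAG, a motif of ETS factors, were present on either strand in 34.7% of them, against 17.6% of windows of protein-coding genes tested in the mouse and 8.86% of all windows. The letters AAGATGGC, a motif of YY1, were present in 16.0%, 4.47% and 2.75%. The longer motif of NRF1, a factor of mitochondrial genes, was present in 17.3%, 9.96% and 4.60%. The other motifs were not more frequent than among the genes tested: CACGTG, the E-box, was present in 9.33%, 10.01% and 7.15%, and TATAAA, the TATA box, in 6.67%, 7.68% and 13.6%. The motif CCGGAAG was found in 5 of the 14 windows of raised members and in 20 of the 60 windows of those not called, so that its share was about alike in both. The Mrpl17 window (GRCm38.p6, chr7:105811038-105811337, minus strand) held both CCGGAAG and the NRF1 motif, in capitals in the sequence that follows. It is shown because MRPL17 was singled out beforehand for its opposite change in human and mouse.

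Mrpl17 promoter: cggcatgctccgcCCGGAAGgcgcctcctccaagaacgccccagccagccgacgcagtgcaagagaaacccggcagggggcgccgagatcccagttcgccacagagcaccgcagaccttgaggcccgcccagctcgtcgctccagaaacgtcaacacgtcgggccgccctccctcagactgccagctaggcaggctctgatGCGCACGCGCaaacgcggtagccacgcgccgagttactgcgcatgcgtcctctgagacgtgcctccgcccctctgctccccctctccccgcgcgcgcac

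The response of 4 gene pairs differed between the species, a share close to that of all pairs tested. A joint limma fit over all 20 livers asked, for each pair with the same symbol, whether the human change minus the mouse change differed from 0. Of the 73 member pairs, 4 (among them MRPL17, singled out beforehand) passed an adjusted p under 0.05. That is 5.48% of the members, beside 5.06% of all 8123 pairs tested, so the members did not stand out by this count. At an unadjusted p under 0.05 it was 15 members (20.5%, beside 19.8% of all pairs), and in all 15 the human change lay below the mouse change. The direction was not counted among all pairs called, so whether it is particular to the members cannot be told. The median of the human minus the mouse change was −0.12 for the members and −0.09 for all pairs. The number of pairs past the adjusted threshold was 8 without humanized HuR KD replicate 3, 7 without humanized LacZ replicate 2, 2 without humanized LacZ replicate 3, and 3 to 5 without any other liver. The fit gives each pair 1 variance over both tables. The median within-group SD of the tested members was 0.239 in human and 0.153 in mouse. The SE of the difference lay below the human SE for MRPL17 (0.151 against 0.172), MRPL11 (0.227 against 0.233) and MRPL18 (0.143 against 0.146). For MRPS34 it lay above (0.193 against 0.163). The p-values of these pairs may therefore be too small, and separate variances were not tried.

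MRPL17 was the pair with the smallest p, and it was called in opposite directions. Because it was singled out for that opposite change in these same livers, its values describe the change and are no independent test of it. The human transcript fell by 0.75 on the log2 scale while the mouse transcript rose by 0.24, a difference of −0.99 (SE 0.15, adjusted p = 0.000636). The adjusted call held in each of the 26 alternatives for this difference, which ran from −1.11 to −0.90. MRPS34 was the other pair called in both species in opposite directions, with a human change of −0.45, a mouse change of 0.29 and a difference of −0.74 (SE 0.19, adjusted p = 0.0268). That adjusted p was 0.0641 without humanized HuR KD replicate 1 and 0.0562 without humanized LacZ replicate 3.

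For MRPL11 the human change stood against no clear change in the mouse. Mrpl11 ranged from 12.4 to 20.8 TPM (median 18.2) with HuR KD and from 16.3 to 18.8 TPM (median 17.5) with LacZ. The groups overlapped, the mouse log2 difference was 0.01 (SE 0.10), and the difference between the species was −1.11 (SE 0.23, adjusted p = 0.00574). Without WT HuR KD replicate 6, the lowest of its group, the mouse log2 difference was 0.10 and still not called. Mrpl18 ranged from 82.3 to 101 TPM (median 92.9) with HuR KD and from 78.9 to 94.4 TPM (median 84.2) with LacZ, which overlapped (log2 difference 0.11, SE 0.07). Its difference between the species, −0.51 (SE 0.14, adjusted p = 0.0404), passed the threshold by a small margin. It rose to between 0.0564 and 0.0882 in 13 of the 20 fits that left out a liver. These were the fits without humanized HuR KD replicates 1 and 2, humanized LacZ replicates 3 and 4, WT HuR KD replicates 1, 2, 4 and 5, and WT LacZ replicates 1 to 5.

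**Figure D3:**
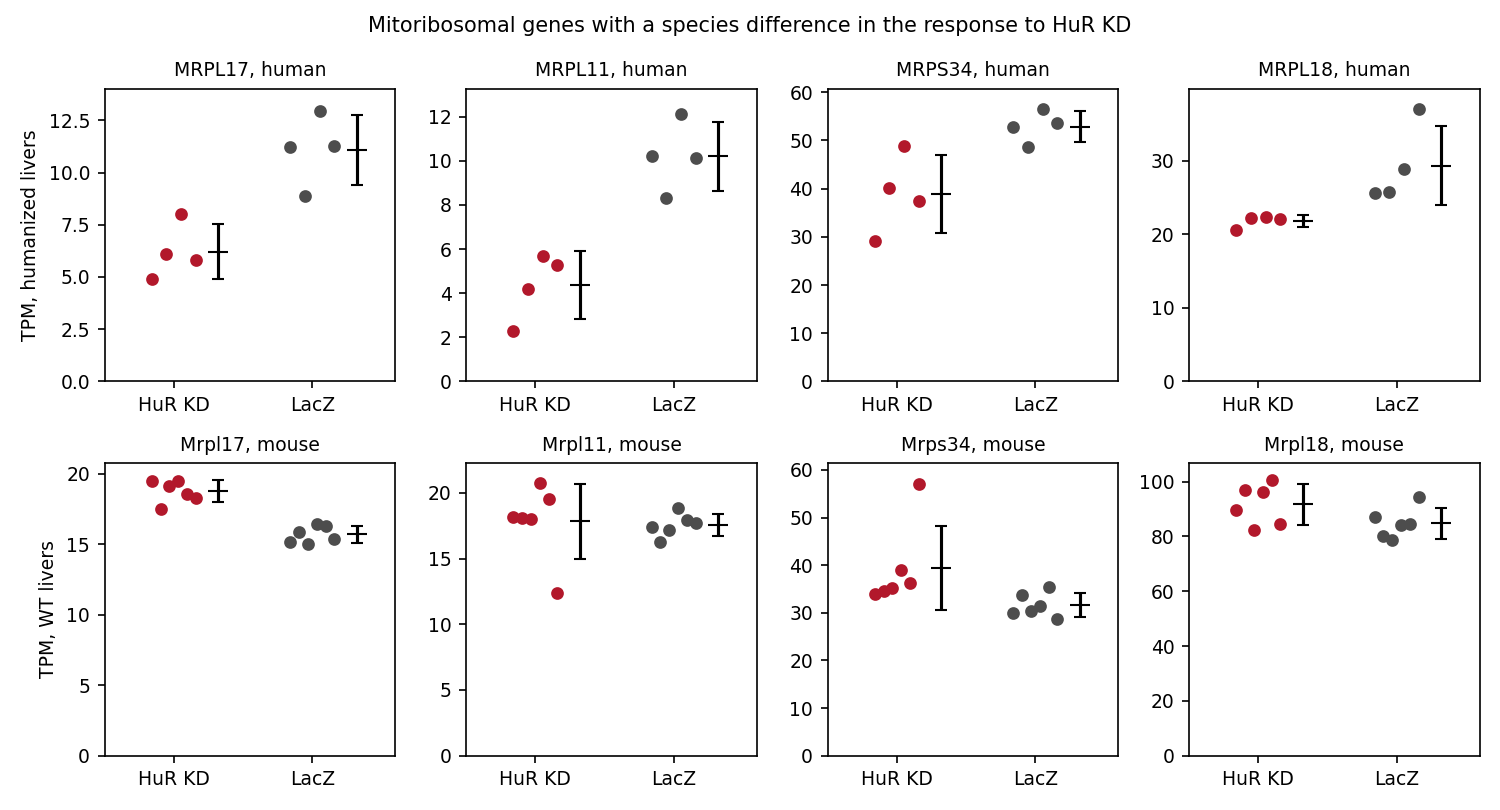
TPM of the 4 gene pairs whose response to HuR KD differed between the species (vertical axes, starting at 0) is shown for each of 8 humanized livers (top) and 12 WT livers (bottom), HuR KD in red and LacZ in grey, with black bars for the mean and SD. Human MRPL17, MRPL11 and MRPL18 separate without overlap, lower with HuR KD, and among the mouse counterparts only Mrpl17 separates, higher with HuR KD.

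**Figure D4:**
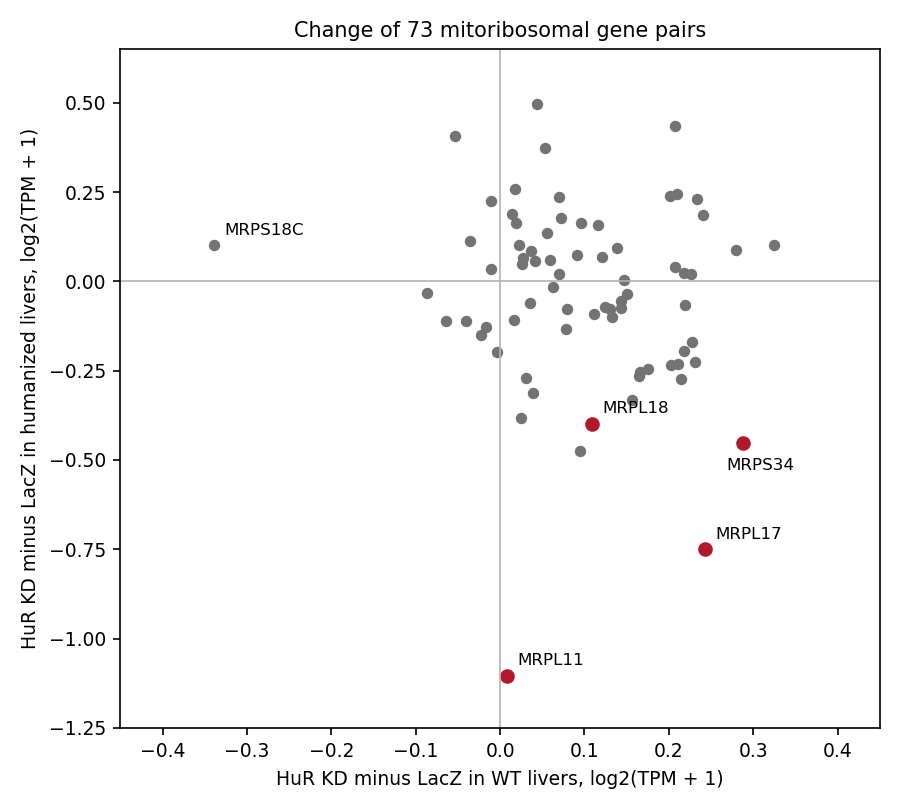
Each of 73 points is a gene pair, placed by the difference between HuR KD and LacZ as log2(TPM + 1) in WT livers (horizontal axis) and in humanized livers (vertical axis, which spans a wider range), with the 4 pairs past the adjusted threshold in red. MRPL17 and MRPS34 lie below 0 in human and above 0 in mouse, MRPL11 lies near 0 in mouse, and MRPS18C stands alone at −0.34 in mouse, a value set by 1 liver.

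Among pairs called in the mouse only, 11 raised mouse members were not called in human, and 3 more (Mrps18b, Mrpl23 and Mrps24) could not be tested there. MRPL12 showed how little some of these human values can tell. Its human level was 4.45, 1.44, 4.49 and 4.74 TPM with HuR KD and 1.78, 6.68, 9.37 and 0 TPM with LacZ, on 0 to 74 reads, and the log2 difference was 0.23 (SE 0.67). MRPL42, MRPL3, MRPS35 and MRPS25 had human log2 differences of −0.23 (SE 0.16), −0.20 (SE 0.17), −0.23 (SE 0.14) and −0.27 (SE 0.21), none of them called. The difference between the species was not past the adjusted threshold for these 4 pairs, with MRPS35 the closest at −0.46 (SE 0.14, adjusted p = 0.0587).

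WT HuR KD replicate 6 gave several members a value far from the other livers. Mrps18c, another paralog of the bacterial S18 protein, stood at 11.2 TPM there, on 64 reads, against 39.4 to 52.1 TPM in the other 11 livers. This was 25.3% of the median of the others. Its log2 difference between HuR KD and LacZ livers, −0.34 (SE 0.29), was −0.02 without that liver. Mrpl11 was also lowest in that liver, at 12.4 TPM, while Mrps24 (80.8 TPM against 51.1 to 55.4 TPM in the other HuR KD livers) and Mrps34 (57.1 TPM against 34.0 to 39.0 TPM) were highest there. Mrps34 shares 763 of its 2064 exon bases on the same strand with Nme3, Mrps24 shares 226 of 1466 with Urgcp, and Mrps18c shares 250 of 1076 with Gm43511. Without that liver the log2 difference of Mrps34 was 0.18 and that of Mrps24 was 0.14, both smaller and still called. For 24 of the 77 tested members this liver was the lowest of the 12, where an even share would be 6.42. The same count for the other livers and for all genes is not given here. Whether it is particular to this liver or to the members therefore cannot be told.

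**Figure D5:**
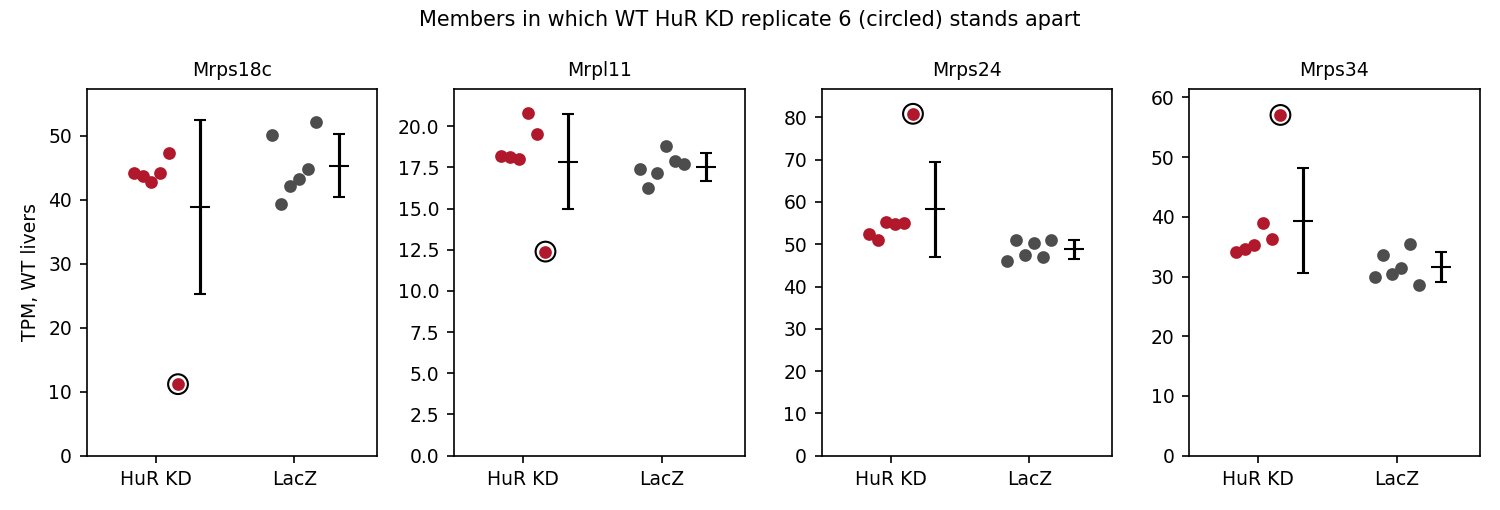
TPM of 4 mouse members in each of 6 HuR KD (red) and 6 LacZ (grey) WT livers is shown with black bars for the mean and SD, HuR KD replicate 6 circled. Mrps18c (11.2 TPM) and Mrpl11 (12.4 TPM) are lowest and Mrps24 (80.8 TPM) and Mrps34 (57.1 TPM) highest in that liver.

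The cytosolic ribosomal proteins, which form the other ribosome of the cell, were counted in the same fits. In humanized livers 33 of 77 were lower and 0 higher (median log2 difference −0.30), beside 7.87% lower and 3.60% higher of all human genes. In WT livers 44 of 80 were higher and 0 lower (median 0.21), beside 9.09% higher and 6.94% lower of all mouse genes. The mitochondrial ribosomal proteins stood at medians of −0.02 and 0.10 in the same fits. All of these comparisons share the same control livers and are given side by side only.

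Other genes of mitochondrial translation were counted from fixed lists in the same fits, and each count below stands beside the same backgrounds: 3.60% higher and 7.87% lower of all human genes, and 9.09% higher and 6.94% lower of all mouse genes. The 5 mitoribosomal proteins known by other symbols (DAP3, PTCD3, CHCHD1, AURKAIP1 and GADD45GIP1) gave 0 calls in either species, with median log2 differences of −0.04 in human and 0.11 in mouse. Mitochondrial translation factors gave 1 higher and 0 lower of 15 in human and 2 higher and 0 lower of 15 in mouse. MTG1, a GTPase of large subunit assembly, was higher in both, at 3.44 ± 0.70 against 2.29 ± 0.33 TPM in humanized (log2 difference 0.42, SE 0.17) and 10.7 ± 0.79 against 8.70 ± 0.84 TPM in WT livers (log2 difference 0.27, SE 0.07). The human call of MTG1 was lost without HuR KD replicate 2 or 3 or LacZ replicate 1, 2 or 3 (log2 differences of 0.34 to 0.41). The other was Taco1, an activator of the translation of a cytochrome oxidase subunit, at 40.9 ± 4.15 against 31.9 ± 4.69 TPM (log2 difference 0.36, SE 0.11, adjusted p = 0.121).

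Factors of ribosome assembly and rRNA modification gave 0 higher and 1 lower of 19 in human, and 7 higher and 1 lower of 21 in mouse. Their median log2 differences were −0.02 in human and 0.0011 in mouse. The lowered human gene was RPUSD4, a pseudouridine synthase of the 16S rRNA, at 5.96 ± 1.38 against 8.78 ± 2.23 TPM (log2 difference −0.49, SE 0.21), and its call was lost without HuR KD replicate 2 or 4 or LacZ replicate 1, 3 or 4 (−0.51 to −0.34). Its mouse counterpart Rpusd4 was among the raised ones (log2 difference 0.19, SE 0.08), and the difference between the species was −0.67 (SE 0.20, adjusted p = 0.0540). That adjusted p ran from 0.0110 to 0.132 over 25 alternatives and was under 0.05 in 5 of them. Mrm3, a methyltransferase of the same rRNA, rose from 8.96 ± 0.87 to 12.6 ± 1.55 TPM (log2 difference 0.44, SE 0.09, adjusted p = 0.0391). Ybey, an endoribonuclease, rose from 2.73 ± 0.44 to 4.06 ± 0.45 TPM (log2 difference 0.44, SE 0.10, adjusted p = 0.0533). Malsu1, which keeps the subunits apart during assembly, was the one lowered (log2 difference −0.17, SE 0.07).

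The mitochondrial aminoacyl-tRNA synthetases gave 0 higher and 1 lower of 15 in human and 4 higher and 1 lower of 17 in mouse. Sars2, which charges the serine tRNA, rose from 5.02 ± 0.43 to 7.17 ± 0.74 TPM (log2 difference 0.44, SE 0.08, adjusted p = 0.0276), and Aars2, which charges the alanine tRNA, from 6.70 ± 0.54 to 8.08 ± 0.79 TPM (log2 difference 0.24, SE 0.08, adjusted p = 0.155). The lowered human gene was YARS2 for tyrosine, at 7.15 ± 0.69 against 9.91 ± 2.06 TPM (log2 difference −0.40, SE 0.17), and that call was lost without HuR KD replicate 1, 2 or 4 or LacZ replicate 1, 3 or 4 (−0.41 to −0.33). Genes of mitochondrial transcription and RNA processing gave 0 calls of 19 in human, and 4 higher and 1 lower of 19 in mouse. Of these, Lrpprc, which stabilises mitochondrial mRNAs, rose from 74.0 ± 3.42 to 85.7 ± 7.17 TPM (log2 difference 0.21, SE 0.06, adjusted p = 0.134), and Elac2, which trims the 3′ ends of tRNAs, from 20.5 ± 0.88 to 23.6 ± 0.99 TPM (log2 difference 0.19, SE 0.05, adjusted p = 0.0868).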

How the data were processed

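Liver RNA was sequenced as stranded total RNA. According to the study's methods and the submitters' processing notes, reads were trimmed (cutadapt, Trim Galore), aligned with HISAT2 to mm10 or, for humanized livers, to a combined human (GRCh38) and mouse index, and counted with featureCounts (Subread). The authors deposited TPM per gene. The formula is not given in the sources used here.

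From the deposited TPM, genes averaging at least 1 TPM in a table were fitted as log2(TPM + 1) with limma 3.58.1 (trend, R 4.3.3), which understates changes of low genes. Calls use an unadjusted p under 0.05, as in the study, with Benjamini-Hochberg adjustment beside it. The species difference came from a joint fit over 20 livers, with 1 variance for each pair shared by both tables. It is called at an adjusted p under 0.05. HuR and single members were also compared by two-sided exact permutation over 70 and 924 groupings. Each liver is 1 mouse.

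Whole reads were recovered from the TPM steps for 100% of 18702 human and 25110 mouse genes with values in at least 4 livers. In simulated data with 200 genes shifted by 1.5, limma recovered 93% (12738 human genes) and 99% (15090 mouse genes), and 4.86% and 5.04% of unchanged genes were called. That shift is larger than any change of a member. The members' log2 differences ran from −1.10 to 0.50 in human and from −0.34 to 0.32 in mouse. Noise was drawn apart for each liver. The shares recovered therefore do not tell how often changes of the members' size would be called. Alternatives were log2(TPM + 0.1), no filter, a minimum of 5 TPM, 3 other scalings, no trend, array weights, voom, a replicate block and each liver left out.

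The members, gene lists and tests were chosen with earlier results of these data known, and MRPL17 was singled out for the opposite change seen in them. Named are HuR, MRPL17, and in each species the 5 raised and 5 lowered members with the smallest p, the 5 smallest interaction p among those called, the 3 highest and 3 lowest in LacZ livers, members below the filter and 2 genes of each other list. Other members were named after their values were seen. The result of 1 gene of the other lists is not reported here. Mouse 3′ UTRs and gene positions came from GENCODE M21 and promoters from RefSeq (GRCm38.p6). Scripts ran in Python 3.11.15 with numpy 2.4.6, pandas 2.3.3 and scipy 1.17.1, and matplotlib 3.10.9 drew the figures.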

Additional observations from a re-analysis of the deposited data

Results flagged for a closer look

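Several members had 1 liver outside the range of its group, with a gap to the nearest other liver above the 95% limit for a group of that size. In humanized HuR KD livers, MRPL12 was low in replicate 2 (1.44 TPM against 4.45 to 4.74 TPM in the others), MRPL18 was low in replicate 1 (20.5 TPM against 22.0 to 22.3 TPM) and MRPS7 was high in replicate 3 (10.8 TPM against 9.61 to 9.81 TPM). In WT HuR KD livers, all 4 such values fell on replicate 6: Mrpl11 at 12.4 TPM, Mrps18c at 11.2 TPM, Mrps24 at 80.8 TPM and Mrps34 at 57.1 TPM. In WT LacZ livers, replicate 2, the shallowest library, was high for Mrpl14 (64.3 TPM against 38.6 to 45.3 TPM) and Mrpl4 (29.8 TPM against 19.2 to 21.5 TPM) and low for Mrpl41 (26.7 TPM against 32.7 to 35.1 TPM), while replicate 4 was low for Mrpl24 (64.7 TPM against 73.3 to 77.2 TPM). These were 11 of 78 groups of the named members, and 41 of 304 groups over all tested members and HuR. Chance alone gives about 1 in 20 such groups.

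For 4 gene pairs the effect of HuR KD differed between human and mouse by the test of the difference itself. This was 5.48% of the member pairs, close to the 5.06% of all pairs tested. The human minus the mouse log2 difference was −0.99 for MRPL17, −1.11 for MRPL11, −0.74 for MRPS34 and −0.51 for MRPL18. Species, shRNA and mouse strain differ together between the tables, and their parts cannot be told apart.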

How the results depend on the processing

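None of the alternatives run reversed a called direction. Raised human members (2 in the reported fit) numbered 7 with median-of-ratios factors, 5 with quantile normalization, 4 with rescaling to protein-coding genes, 4 with array weights, 1 without the trend, 1 with voom on recovered reads, 1 with the replicate block, 0 at an adjusted p under 0.05 and 0 to 4 with each liver left out. Without the 2 deepest humanized livers, an alternative chosen after seeing the data, they numbered 4. Of all human genes, 3.60% were called higher in the reported fit. This share was 6.44% with median-of-ratios factors, 6.11% with quantile normalization, 4.99% with rescaling to protein-coding genes and 4.22% with array weights. Lowered human members (4) numbered 2 with voom, 0 at an adjusted p and 2 to 7 with each liver left out. Raised mouse members (16) numbered 43 with array weights, 25 with voom, 1 at an adjusted p and 14 to 30 with each liver left out. Of all mouse genes, 9.09% were called higher in the reported fit. This share was 18.9% with array weights, 12.3% with voom and 12.4% without HuR KD replicate 6. Pairs whose response differed between species (4) numbered 2 with the replicate block and 2 to 8 with each liver left out. The human HuR change of −0.59 missed the adjusted threshold (adjusted p = 0.214). The causes were not tested. All human genes called (1461 of 12738 tested) numbered 27 at an adjusted p. At a minimum of 5 TPM they numbered 931 of only 6447 tested. There 4.19% were called higher and 10.3% lower, larger shares than the 3.60% and 7.87% of the reported fit. All mouse genes called (2418) numbered 4205 with array weights and 134 at an adjusted p. Where leaving out livers took away a call of a named member, the report gives it.

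Same-numbered livers did not deviate together throughout. The correlations of their deviations ran from −0.36 to 0.25 over the 4 humanized pairs and from −0.20 to 0.33 over the 6 WT pairs, so the numbers were taken as names only, and the replicate block gave 14 raised mouse and 4 lowered human members. Depth limited the low human members most: the median of tested members was 141 reads per humanized and 766.5 per WT liver, and the lowest 12.5 and 119.5.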

Other observations

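Besides the protein-coding members, 78 human and 5 mouse rows carry a name of the same form, and in human 70 of them are processed pseudogenes. Most were listed at or near 0. The highest were the antisense transcript MRPL20-AS1, at a mean of 9.72 TPM over the 8 humanized livers, MRPS36P1 at 2.64 TPM and MRPL45P2 at 2.42 TPM. MRPL45 itself averaged 2.92 TPM in LacZ livers, so that for this gene a copy was listed at a level close to its own. How reads that match both were counted is not given in the sources used here. The readthrough gene URGCP-MRPS24, which spans MRPS24, averaged 0.085 TPM.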
